A study of Mus musculus with 4 samples.

Results

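Homeostatic microglia genes are transcripts that resting microglia, the resident macrophages of the brain, carry at high level and that other macrophages carry at low level. The 7 genes described here are P2ry12, Tmem119, Cx3cr1, Sall1, Siglech, Gpr34 and Selplg, chosen by name and found as 7 of the 55487 genes in the files. Their UMIs (unique molecular identifiers, which tag single RNA molecules) were read in 3019 microglia-like cells out of 20737 kept cells of mouse brain. Cells were assigned to classes from the UMIs of marker genes, and none of the 7 genes is a marker in that assignment.

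The study had made 4 single-cell libraries, with age (young, old) and genotype label crossed and 1 library in each group. WT Cre mice carried the endothelial Cre driver Cdh5-Cre, and EC-K4KO mice carried it with floxed Klf4, so that inducible deletion was directed to the endothelium and not to microglia. At each age there was a WT Cre and an EC-K4KO library. The labels give age only as young or old and name brain endothelial cells, and they do not say how many mice entered a library. Both genotypes were on a C57BL/6J background and received the induction. Microglia were not the cell type named in the labels, and no group has a replicate library.

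The labels were checked on Klf4 in endothelial-like cells. Klf4 stood at 1688 CPM (UMIs of a gene per 1000000 UMIs of the summed cells) in young WT Cre, 3276 CPM in the young EC-K4KO-labelled library and then, among old mice, 2112 CPM for WT Cre and 3310 CPM for the EC-K4KO-labelled library. Both EC-K4KO-labelled libraries thus held more Klf4 UMIs than their controls, against their labels. Which exons were deleted is not given in the sources used here, so it was not tested whether these UMIs lie outside the deleted stretch. The study's methods describe separate measurements of RNA and protein in isolated brain endothelial cells to check the deletion, which are not analysed here. Age is given below over all 4 libraries and, for the set and for the other gene lists, within the pair labelled WT Cre. Barcodes seen in both libraries of a pair numbered 42 for the young libraries and 7 to 15 for the other pairs, and at most 4 microglia-like cells of any library carried a barcode shared with a given other library.

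Microglia keep their identity through a small set of transcription factors and through signals from their surroundings, including transforming growth factor beta and ligands of the CSF1 receptor. The surface proteins of the set read the tissue. P2ry12 is a purinergic receptor that senses nucleotides released by injured cells, Cx3cr1 is the receptor for the chemokine fractalkine (Cx3cl1), Gpr34 is a lysophosphatidylserine receptor and Siglech is a sialic acid binding lectin that signals through the adaptor Tyrobp. Selplg encodes PSGL-1, the selectin ligand that also serves leukocytes in blood, Tmem119 is a membrane protein used as a microglial marker, and Sall1 is a transcription factor that keeps microglia apart from other macrophages. Loss of these transcripts is a recognised feature of activated microglia.

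In the GRCm38 annotation P2ry12 lies at chr3:59216272-59262871 on the minus strand, inside Med12l on the opposite strand, and Gpr34 lies at chrX:13632089-13640858 on the plus strand, inside Cask on the opposite strand. Cx3cr1 is annotated at chr9:119901616-120069879 on the minus strand and overlaps 9 other annotated genes. Tmem119 (chr5:113793729-113800516, minus), Selplg (chr5:113818536-113832644, minus), Sall1 (chr8:89027235-89044162, minus) and Siglech (chr7:55768178-55778925, plus) overlap no other annotated gene. The strand setting of the counting is not given in the sources used here. The RefSeq promoter table (GRCm38.p6, 250 bases before to 50 bases after the start) held 4 of the 7 genes. The promoters of P2ry12 and Siglech are shown because these were the genes with the largest and the smallest fitted change with age. They are written 5′ to 3′ on the strand of the gene, with capitals marking the PU box (GAGGAA, or TTCCTC on the other strand), the motif of the myeloid factor PU.1 (Spi1).
P2ry12, chr3:59262936-59263235, minus strand: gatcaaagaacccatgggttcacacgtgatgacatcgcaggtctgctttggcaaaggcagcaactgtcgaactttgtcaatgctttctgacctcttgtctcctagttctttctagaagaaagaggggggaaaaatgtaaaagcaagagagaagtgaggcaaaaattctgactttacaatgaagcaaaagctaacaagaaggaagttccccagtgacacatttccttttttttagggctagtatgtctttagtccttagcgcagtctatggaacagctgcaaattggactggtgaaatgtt
Siglech, chr7:55767934-55768233, plus strand: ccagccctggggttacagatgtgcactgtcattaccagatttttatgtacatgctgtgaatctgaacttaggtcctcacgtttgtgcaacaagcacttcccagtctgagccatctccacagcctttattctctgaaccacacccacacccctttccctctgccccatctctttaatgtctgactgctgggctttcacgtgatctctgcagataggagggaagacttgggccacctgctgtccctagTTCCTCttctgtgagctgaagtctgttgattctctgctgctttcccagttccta
The Siglech promoter held 1 match, beginning at position -4 relative to the start, and the P2ry12, Cx3cr1 and Sall1 promoters held none. Among all 32851 promoters, 28.28% held the motif, so its presence in 1 of 4 says nothing particular about these genes, and its absence says only that these letters are not in this window.

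Nearly all UMIs of the set came from microglia-like cells. These cells supplied 96.4% of P2ry12, 96.6% of Tmem119, 96.0% of Cx3cr1, 96.6% of Siglech and 96.3% of Gpr34 UMIs in the kept cells. The share was lower for Selplg (91.8%) and Sall1 (83.3%). All 8 microglia markers used for the assignment were detected in these cells in every library, with a summed level of 30340 to 35550 CPM. Of the 3019 single microglia-like cells 6 held no UMI of any of the 7 genes, and 74 held none after each cell was thinned to 1000 UMIs (2.45%, exact 95% interval 1.93 to 3.07, counting error only).

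**Figure D1:**
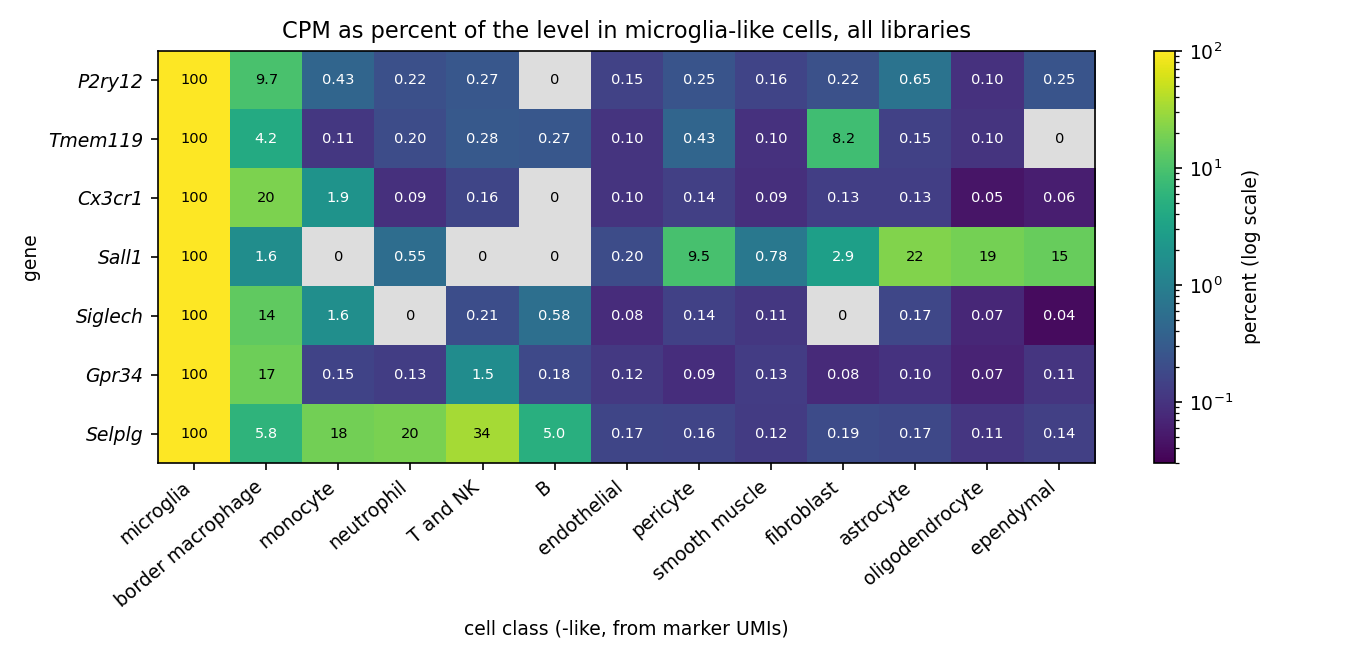
Level of each gene (rows) in each cell class (columns) as a percent of its level in microglia-like cells, over all 4 libraries, on a log colour scale; grey cells had 0 UMIs. In endothelial-like cells every gene sat between 0.085% and 0.198% of its microglial level, while Sall1 reached 21.8% in astrocyte-like cells, Tmem119 8.23% in fibroblast-like cells and Selplg 33.5% in T and NK-like cells.

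Endothelial-like cells, which should lack the set, gave the ambient level, the UMIs that free RNA leaves in other droplets. All 7 genes lay there between 0.353 CPM (Sall1) and 2.61 CPM (Cx3cr1), which is 0.085% (Siglech) to 0.198% (Sall1) of the microglial level. After the same thinning, P2ry12 was seen in 0.238% of 10074 endothelial-like cells (2.08% unthinned, median depth 6107 UMIs) against 71.4% of microglia-like cells (95.03% unthinned, median depth 5419 UMIs). Relative to microglia, the 7 ambient levels thus lay within a narrow band.

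Against that level Sall1, Tmem119 and Selplg stood out in the classes described next. Other genes of the set also lay above it in border macrophage-like and monocyte-like cells, which are described further on. Sall1 stood at 38.8 CPM in astrocyte-like cells (179 UMIs, interval 33.3 to 44.9), 33.1 CPM in oligodendrocyte-like cells (132 UMIs), 27.2 CPM in ependymal-like cells (70 UMIs) and 16.98 CPM in pericyte-like cells (70 UMIs). The 6 other genes reached at most 0.652% of their microglial level in astrocyte-like cells, where Sall1 reached 21.8%, so the Sall1 UMIs there were out of proportion to those of the other genes. In astrocyte-like cells Sall1 stood at 25.8 CPM in young WT Cre, 54.6 CPM in the young EC-K4KO-labelled library and then, among old mice, 37.8 CPM for WT Cre and 55.4 CPM for the EC-K4KO-labelled library. It was thus found in all 4 libraries, and after thinning in 4.14% of 725 astrocyte-like cells (20.8% unthinned, median depth 5895 UMIs) against 0.0199% of endothelial-like cells (0.328% unthinned).

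Tmem119, which is also known from bone-forming cells, was carried by fibroblast-like cells at 61.1 CPM (70 UMIs, interval 47.6 to 77.2). The 4 libraries gave 39.1, 57.1, 77.7 and 105 CPM in the order above, from 18 to 27 cells each, and their intervals overlap. Tmem119 UMIs were found in 40 of the 96 cells. Selplg was present in all blood leukocyte classes, at 465 CPM in T and NK-like cells, 273 CPM in neutrophil-like cells, 246 CPM in monocyte-like cells and 69.4 CPM in B-like cells. Selplg was the only 1 of the 7 genes above 2% of its microglial level in any of these 4 classes.

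Macrophages of the brain borders (perivascular and meningeal) are the nearest relatives of microglia, and the set was lower in them. In border macrophage-like cells (222 cells, 31 to 83 per library) P2ry12 stood at 175 CPM in young WT Cre, 215 CPM in the young EC-K4KO-labelled library and then, among old mice, 65.02 CPM for WT Cre and 105 CPM for the EC-K4KO-labelled library. The lowest microglial value of P2ry12 was 1052 CPM, so the classes did not overlap. Sall1 was nearly absent, with 4 UMIs among 1396255, and Cx3cr1 was the best retained, at 526 CPM or 20.2% of the microglial level. With UMIs summed per library and class and the library as a block (edgeR quasi-likelihood test), all 7 genes were higher in microglia-like than in border macrophage-like cells. The log2 differences ran from 2.52 ± 0.14 for Cx3cr1 (SE, n = 4 libraries, adjusted p = 2.0e-16) to 6.20 ± 0.34 for Sall1 (adjusted p = 1.6e-16). Of all 9830 genes tested, 15.2% were higher and 13.1% lower. Sall1 entered this test through its microglial UMIs alone, so it could only be called higher. Within border macrophage-like cells P2ry12, Cx3cr1, Gpr34 and Siglech were lower in both old libraries than in both young ones, with Cx3cr1 at 542 and 666 CPM (young) against 333 and 479 CPM (old), while Tmem119, Selplg and Sall1 were not. With TMM factors made within these cells the order no longer held for Siglech. This was not tested, and the order was not counted over all genes.

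Monocyte-like and neutrophil-like cells carried the set at under 1% of the microglial level, apart from Selplg in both and Cx3cr1 and Siglech in monocyte-like cells. Over the 3 libraries with at least 10 monocyte-like cells Sall1 had 0 UMIs, which puts microglia-like cells at least 66.3-fold higher (against a floor of 3 UMIs over the group). Cx3cr1, which classical monocytes carry weakly, stood at 46.4 CPM, 53.3-fold below microglia-like cells (interval 40.9 to 71.0, counting error only). The 20 Siglech UMIs came from 2 cells of the old EC-K4KO-labelled library, 1 of them with 13 UMIs. In neutrophil-like cells Siglech had 0 UMIs (microglia-like cells at least 646-fold higher, same floor), and Tmem119, Sall1 and Gpr34 had 2 or 3 UMIs each. All 7 genes were higher in microglia-like than in monocyte-like cells (edgeR, n = 3 libraries, background 18.8% higher and 11.2% lower of 10874 genes) and than in neutrophil-like cells (n = 3 libraries, background 26.1% higher and 11.1% lower of 10884 genes). Genes with 0 to 3 UMIs in the other class entered these tests through their microglial UMIs alone and could only be called higher. These were Sall1, Tmem119 and Gpr34 against monocytes, and the same genes with Siglech against neutrophils. The count of 7 is therefore not to be read against the background. Selplg differed least, by 2.60 ± 0.29 on the log2 scale from monocytes (adjusted p = 4.4e-07) and by 1.34 ± 0.49 from neutrophils (adjusted p = 0.020). In neutrophil-like cells Selplg ran from 231 CPM in the old EC-K4KO-labelled library (284 cells) over 426 CPM in old WT Cre (25 cells) to 1077 CPM in the young EC-K4KO-labelled library (15 cells). The Selplg call against neutrophils was lost without old WT Cre (log2 difference 0.99, adjusted p = 0.47) and without the old EC-K4KO-labelled library (1.19, adjusted p = 0.48).

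The main comparison asked whether the set differs between microglia of young and old mice. All 7 genes fell with age. P2ry12 stood at 2227 CPM in young WT Cre (346 cells), 2461 CPM in the young EC-K4KO-labelled library (596 cells) and then, among old mice, 1200 CPM for WT Cre (1315 cells) and 1052 CPM for the EC-K4KO-labelled library (762 cells). Both young libraries lay above both old ones, and the same held for each of the 7 genes, on plain CPM and with TMM factors. Lower values on plain CPM were not particular to the set. Of 20 other microglia identity genes 19 were lower in old than in young within the WT Cre pair, and all 20 within the EC-K4KO-labelled pair. The order was not counted over all genes.

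**Figure D2:**
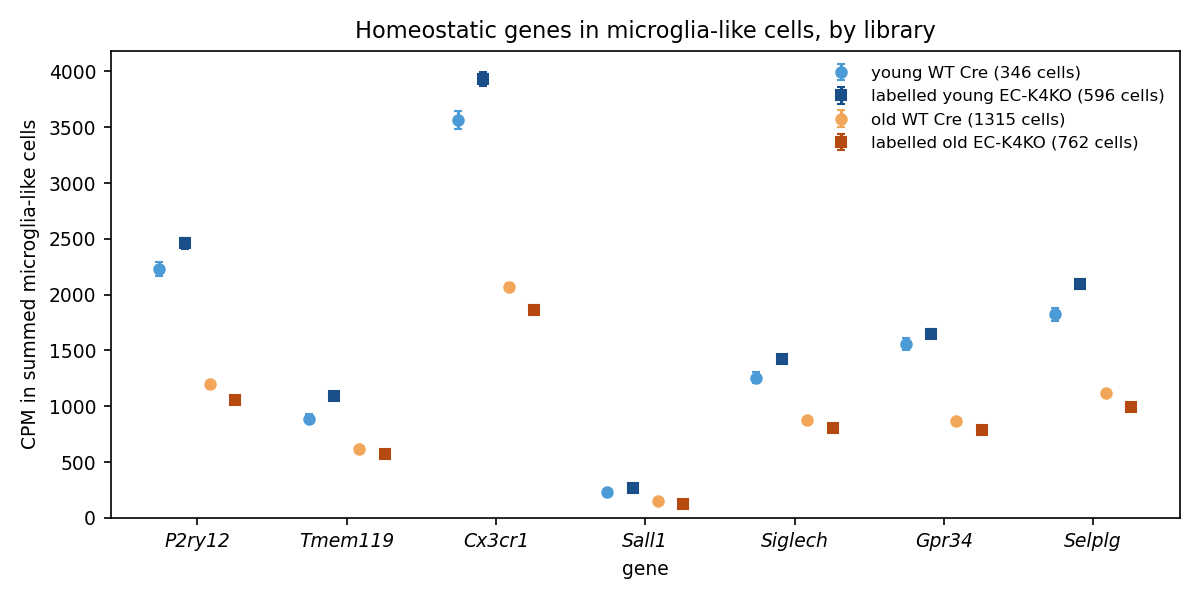
CPM of each gene in summed microglia-like cells of the 4 libraries, with exact 95% Poisson intervals (counting error only); circles are WT Cre and squares the libraries labelled EC-K4KO. For every gene both young libraries (blue) lie above both old ones (orange), from 2227 and 2461 against 1200 and 1052 CPM for P2ry12. How many of all genes show this order was not counted.

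Among the receptors, Cx3cr1 stood at 3563, 3928, 2072 and 1865 CPM in the same order of libraries. Gpr34 stood at 1556, 1650, 868 and 790 CPM, and Siglech at 1257, 1423, 874 and 805 CPM. The receptor genes thus ran in parallel, with the young EC-K4KO-labelled library highest and the old EC-K4KO-labelled library lowest each time. The selectin ligand Selplg stood at 1824, 2092, 1120 and 994 CPM and Tmem119 at 890, 1088, 619 and 569 CPM. The transcription factor Sall1 stood at 231, 270, 147 and 123 CPM. Per cell, after thinning to 1000 UMIs, 66.5% and 73.2% of young microglia-like cells held UMIs of at least 5 of the 7 genes against 38.7% and 36.0% of old ones. Unthinned, the shares were 94.8% and 96.5% against 94.4% and 88.7%, at median depths of 5619, 5742, 5379 and 4882 UMIs. After thinning P2ry12 was seen in 81.5% and 86.9% of young cells against 68.4% and 60.1% of old ones (96.8%, 97.1%, 95.7% and 91.5% unthinned).

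In the additive model of age and genotype label (edgeR quasi-likelihood test on the 4 sums, 1 residual degree of freedom, with the spread borrowed across 11417 genes) the largest fall was that of P2ry12, by a log2 change of -0.74 ± 0.13 (SE, adjusted p = 1.1e-07). Gpr34 followed with -0.64 ± 0.12 (adjusted p = 1.8e-06), Cx3cr1 with -0.61 ± 0.14 (adjusted p = 9.7e-05) and Sall1 with -0.58 ± 0.11 (adjusted p = 1.5e-06). Selplg changed by -0.57 ± 0.12 (adjusted p = 4.3e-05), Tmem119 by -0.41 ± 0.11 (adjusted p = 0.0018) and Siglech by -0.36 ± 0.12 (adjusted p = 0.012). The SEs of neighbours in this order overlap. The median over the 7 genes was -0.58 against -0.02 over all genes, and of all genes 12.3% were lower and 16.5% higher with age. Scaling to library totals in place of TMM (trimmed mean of M values) factors shifted the median of all genes to -0.34 and that of the 7 genes to -0.89, with all 7 still called. That scaling gave 810 genes higher and 3933 lower, against 1884 and 1399. DESeq2 gave 586 higher and 109 lower, and called 5 of the 7, with adjusted p = 0.072 for Tmem119 and 0.12 for Siglech.

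Within the pair labelled WT Cre, old over young ratios on the TMM scale ran from -0.62 (P2ry12, log2, interval -0.67 to -0.57) to -0.25 (Tmem119 and Siglech). Within the libraries labelled EC-K4KO they ran from -0.87 (P2ry12) to -0.46 (Siglech). These ratios have no replicate check. Markers of other myeloid cells in the microglia-like sums stayed low and are given for scale. The 8 border macrophage markers summed to 220 and 239 CPM in the young libraries and 107 and 132 CPM in the old, mostly Stab1, with Lyve1 at 0 UMIs in young WT Cre and in the old EC-K4KO-labelled library and Cd163 at 0 UMIs in the latter. The 10 neutrophil markers summed to 8.62 to 15.3 CPM in 3 libraries and 167 CPM in the old EC-K4KO-labelled library, and the 6 monocyte markers to 24.7 to 64.2 CPM. Other values in these sums also differed by age. The 8 endothelial markers summed to 211 and 236 CPM in the young libraries against 74.2 and 75.9 CPM in the old. The 6 smooth muscle markers summed to 51.2 and 89.1 CPM against 15.3 and 12.0 CPM. The median mitochondrial share per cell was 2.69% and 2.27% against 3.33% and 2.97%. The part of all these in the fall of the set was not tested. Different clusters held most of the class at the 2 ages. Of the clusters described further on, cluster 17, with the highest levels of the set, held 50.6% and 63.3% of young microglia-like cells (WT Cre, then EC-K4KO-labelled) against 16.7% and 15.2% of old ones, and cluster 18, with the lowest levels, held 3.76% and 2.35% against 12.7% and 29.5%. The part of this makeup in the age changes was not tested, and the levels within each cluster are given below.

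**Figure D3:**
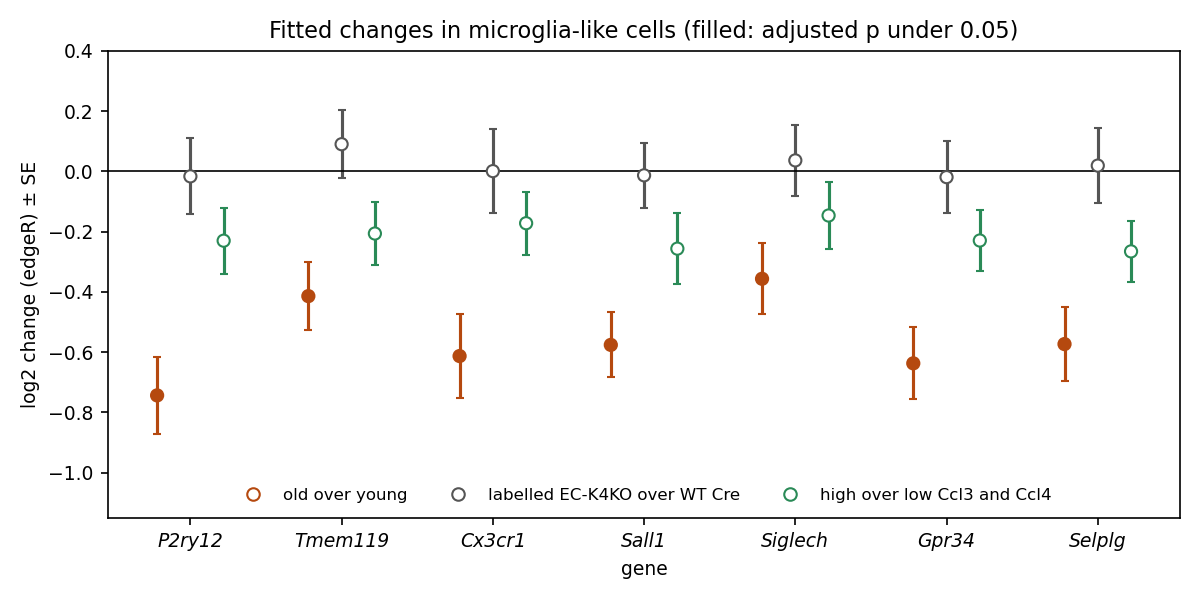
Fitted log2 changes (edgeR, ± SE) of each gene in microglia-like cells for age, genotype label, and high over low Ccl3 and Ccl4; filled points have an adjusted p under 0.05. The 7 age changes lie between -0.74 and -0.36 and are filled, while the genotype points lie around 0 and the Ccl3 and Ccl4 points between -0.27 and -0.15, all open. Each genotype point is 1 value over both ages.

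Of 20 other microglia identity genes 11 fell and 1 rose with age (median log2 change -0.28), among them Vsir, an immune checkpoint receptor (-0.68 ± 0.11, adjusted p = 1.4e-08), Mertk, a receptor for the uptake of dying cells (-0.61 ± 0.11, adjusted p = 1.6e-07), and Hpgds, a prostaglandin D synthase (-0.60 ± 0.11, adjusted p = 4.5e-07). DESeq2 called 5 lower and library totals 18 lower. Of 12 microglia transcription factors and TGF-beta pathway genes none fell and 2 rose, Spi1 (0.61 ± 0.11, adjusted p = 3.6e-07) and Runx1 (0.46 ± 0.11, adjusted p = 0.00018). Of all genes 16.5% were higher, and DESeq2 called 1 of the 12 higher and none lower. Under library totals 7 of these 12 fell and 1 rose, so their direction depends on the scaling. Of 21 disease-associated microglia genes, which activated microglia near plaques and damage are known to carry, 18 rose and none fell (median 1.35). Spp1, encoding osteopontin, changed most (3.04 ± 0.13, adjusted p = 1.3e-116), followed by the lipid carrier Fabp5 (2.76 ± 0.15) and the beta-glucan receptor Clec7a (2.34 ± 0.12). Under library totals 16 rose and 1 fell, and DESeq2 called 10, all higher. In the cells of low Ccl3 and Ccl4 described next 18 of 21 rose (median 2.45, 8.94% of all genes higher), and in those of high Ccl3 and Ccl4 8 of 20 rose (median 0.50, 7% of all genes higher). Within the pair labelled WT Cre 18 of the 21 were higher in old than in young on the TMM scale and 3 lower, with a median log2 ratio of 0.66 and with Spp1 at 2.14, Fabp5 at 3.15 and Clec7a at 1.26. In the EC-K4KO-labelled pair all 21 were higher, with a median of 1.91. Of the 20 other identity genes 14 were lower and 6 higher within the WT Cre pair (median -0.17), and of the 12 transcription factor and TGF-beta genes 5 were lower and 7 higher (median 0.02). These ratios have no replicate check.

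Of 23 early response and dissociation genes, which can also be induced while tissue is taken apart, 13 rose and 5 fell with age (11 and 8 under library totals, 11 and 2 with DESeq2). Ccl3 (2.14 ± 0.16, adjusted p = 3.4e-38), Il1a (1.86 ± 0.12, adjusted p = 3.4e-50) and Ccl4 (1.81 ± 0.17, adjusted p = 2.2e-23) changed most. Within the pair labelled WT Cre 15 of the 23 were higher in old than in young and 8 lower (TMM scale, median log2 ratio 0.45). Ccl3 and Ccl4 together stood at 6042 and 5398 CPM in the young libraries and 18503 and 16580 CPM in the old. The age comparison was therefore repeated within cells of low and of high Ccl3 and Ccl4. In the low cells (below 15.98 UMIs of both genes per 10000, 190 to 386 per library) all 7 genes of the set fell with age, with a median log2 change of -0.54 (of all 9224 genes in that fit 3.7% were lower and 8.94% higher). In the high cells (156 to 963 per library), a split added after the data were seen, 5 of the 7 fell, with a median of -0.52 (of 10006 genes 4.47% were lower and 7% higher), and Tmem119 (-0.32, adjusted p = 0.10) and Siglech (-0.20, adjusted p = 0.32) did not pass.

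Of the 8 ligands and partners of the set only Tyrobp and Entpd1 were high enough in microglia to be tested. Tyrobp, the signalling adaptor of Siglech and other receptors, rose (0.67 ± 0.14, adjusted p = 4.4e-05). The ligand of Cx3cr1, Cx3cl1, was highest in the class set by neuron markers (18 to 47 cells per library), at 576, 445, 407 and 279 CPM in the order of libraries above, with both old libraries below both young ones. In endothelial-like cells it stood at 102, 92.0, 93.6 and 106 CPM, where the ages overlapped. Il34, a cytokine that maintains microglia, was carried by pericyte-like cells at 351, 365, 311 and 300.4 CPM. The selectins that bind PSGL-1 stood lower in endothelial-like cells of young mice. Selp was at 0.830 and 3.62 CPM in the young libraries against 24.3 and 34.7 CPM in the old, and Sele at 2.01 and 7.32 CPM against 29.7 and 52.7 CPM. These levels in other classes were not tested.

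Whether the genotype label mattered to the set was asked in the same model. None of the 7 genes passed, with log2 changes from -0.02 to 0.09 (SE 0.11 to 0.14), a median of 0.00053, and adjusted p-values between 0.987 and 0.999 (edgeR). This fit gives 1 value over both ages. On the TMM scale all 7 genes were higher in the young EC-K4KO-labelled library than in its control (median log2 ratio 0.14). All 7 were lower in the old one than in its control (median -0.10). DESeq2 also called none of the 7. Of all 11417 genes 0.815% were higher and 0.701% lower (4 and 9 genes with DESeq2, against 93 and 80), and 878 had an unadjusted p under 0.05. None of the 7 was among the 878, as the lowest unadjusted p was 0.43 (Tmem119). Of the disease-associated genes 7 rose and none fell, with Spp1 (2.02 ± 0.13), Gpnmb (1.81 ± 0.29, 0 UMIs in young WT Cre) and Igf1 (1.72 ± 0.28) at the head. Igf1 stood at 4.62, 4.96, 6.38 and 26.3 CPM in the order of libraries above, so its value rests on the old EC-K4KO-labelled library. The list did not run one way at both ages. On the TMM scale all 21 genes were higher in the old EC-K4KO-labelled library than in old WT Cre (median log2 ratio 0.90), while in the young pair 14 were lower and 7 higher (median -0.09). Clec7a, for example, stood at 83.1, 45.5, 164 and 365 CPM in the order of libraries above. The difference between the pairs was not tested. DESeq2 called 1 of the 21 genes. Of the early response genes 6 fell, led by Tnf (-0.50 ± 0.12), Nfkbia (-0.47 ± 0.13) and Fosb (-0.43 ± 0.11), and of the transcription factors Bhlhe41 rose (0.40 ± 0.12). DESeq2 called none of these early response genes, and neither DESeq2 nor library totals called a gene of the transcription factor list.

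For high against low Ccl3 and Ccl4 within microglia-like cells, no gene of the set passed the test. P2ry12 stood at 1749, 1976, 1121 and 1059 CPM in the high cells of the 4 libraries and at 2709, 2791, 1471 and 1031 CPM in the low cells. High cells were lower in 3 libraries and slightly higher in the old EC-K4KO-labelled library. With the library as a block (edgeR, n = 4 libraries) all 7 log2 differences were negative, from -0.27 ± 0.10 (Selplg, adjusted p = 0.12) to -0.15 ± 0.11 (Siglech, adjusted p = 0.47), and none passed. DESeq2 likewise called none, and the unadjusted p was under 0.05 for Selplg (0.018), Gpr34 (0.038) and Sall1 (0.043). The median was -0.23 against -0.03 over all 10027 genes, of which 6.03% were higher and 2.97% lower (605 and 298 genes, against 347 and 35 with DESeq2). Under library totals, which shifted the median of all genes to -0.15, 5 of the 7 were called lower. Of 21 early response genes tested 17 rose, led by Tnf (2.42 ± 0.12), Il1a (2.26 ± 0.14) and Gadd45b (1.77 ± 0.14), but cells were split on 2 further genes of that list. Of the disease-associated genes 4 fell (1 with DESeq2), among them Gpnmb (-3.65 ± 0.38) and Igf1 (-1.71 ± 0.42), while Csf1 rose (2.07 ± 0.15). Pmepa1, a TGF-beta target, fell (-0.37 ± 0.10, adjusted p = 0.031).

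A second partition of the cells, a clustering that left the 7 genes out of its variable genes, split microglia-like cells into 3 main clusters. Cluster 17 was led by Rn7sk, Gm15503 and Lpar6, cluster 16 by Gdf15, Tnf and Dusp2, and cluster 18 by Spp1, Cxcl13 and Lpl. On plain CPM all 7 genes were highest in cluster 17, intermediate in cluster 16 and lowest in cluster 18, in each of the 4 libraries. P2ry12 stood at 3000, 3200, 2081 and 2205 CPM in cluster 17, at 2041, 1969, 1268 and 1331 CPM in cluster 16 and at 419, 720, 466 and 434 CPM in cluster 18. In every library the level in cluster 18 was thus lower than in cluster 17 by more than the old libraries were lower than the young ones.

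**Figure D4:**
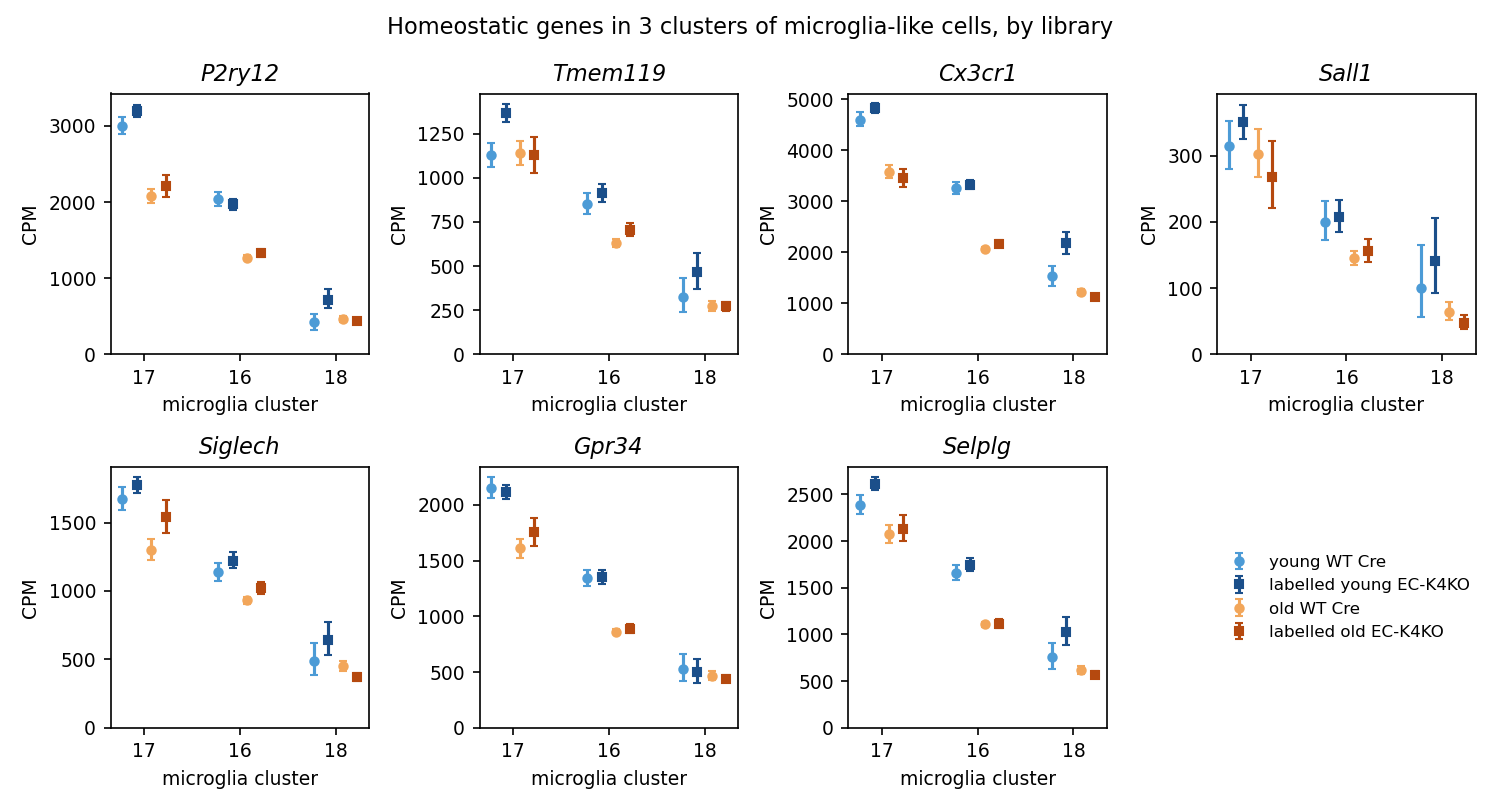
CPM of each gene in 3 clusters of microglia-like cells, by library, with exact 95% Poisson intervals (counting error only); circles are WT Cre and squares the libraries labelled EC-K4KO. Each gene steps down from cluster 17 over cluster 16 to cluster 18, and P2ry12 lies at 3000 and 3200 CPM (young) and 2081 and 2205 CPM (old) in cluster 17 but at 419 to 720 CPM in cluster 18.

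The genes differed in how age showed within a cluster. The levels are plain CPM, and the directions were also read on 2 other scales, added after the data were seen: with the TMM factors of all microglia-like cells, as in the age fit, and with TMM factors made within each cluster. In cluster 17 (116 to 377 cells per library) 6 genes, all but Tmem119, were lower in both old libraries than in both young ones on plain CPM. This held for 4 genes (P2ry12, Cx3cr1, Gpr34 and Selplg) with factors made within the cluster and for 2 (P2ry12 and Cx3cr1) with those of all microglia-like cells. Cx3cr1, for example, stood at 4607 and 4829 CPM in the young libraries and at 3584 and 3457 CPM in the old. Tmem119 stood there at 1127 CPM in young WT Cre and 1140 CPM in old WT Cre, with overlapping intervals, and at 1367 and 1128 CPM in the libraries labelled young and old EC-K4KO. Sall1 stood at 315, 350, 303 and 269 CPM in cluster 17, where the intervals overlapped between the WT Cre libraries and did not between the EC-K4KO-labelled ones. In cluster 16 (143 to 906 cells) all 7 genes were lower in both old libraries on plain CPM and with factors made within the cluster, and all but Tmem119 and Siglech with those of all microglia-like cells. In cluster 18, where only 13 and 14 young cells gave wide intervals, the 6 genes other than P2ry12 were lower in both old libraries on plain CPM, with Cx3cr1 at 1528 and 2181 CPM (young) against 1227 and 1122 CPM (old). This held for 4 genes (Tmem119, Cx3cr1, Sall1 and Selplg) with factors made within the cluster and for 3 (Cx3cr1, Sall1 and Selplg) with those of all microglia-like cells. Clusters were made from the cells of these libraries, so these levels are a description and carry no test. The order of old and young libraries was not counted over all genes in any cluster. The counts therefore do not set the 7 genes apart from other genes of the same cluster.

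Genes with the most similar pattern over 53 sums of class and library (14 classes, log2 of CPM plus 1) were sought among 7797 genes whose mean in microglia-like cells reached 10 CPM. Among the nearest to the mean of the set were Gm30329, Crybb1, Gpr84, Il1a, Gm10790, Gm26520, Abcc3, P2ry13 and Fam167b, with Pearson r from 0.934 to 0.908 across sums that share libraries and depth. P2ry13 is a microglia marker used to assign the cells. Within the set, r with the mean of the other 6 genes was highest for P2ry12 (0.908) and Siglech (0.896). It was lowest for Selplg (0.530) and Sall1 (0.318), both of which were also found in other classes.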

How the data were processed

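Per the file headers, the authors made the deposited values with Cell Ranger 6.0.2, and these are raw UMI counts per gene and barcode. The submitters' processing notes also name Seurat and the builds mm10 and GRCm38. The libraries held 5324 to 8358 barcodes and 30655769 to 88812581 UMIs. Barcodes under 500 genes, under 1000 UMIs or over 10% mitochondrial UMIs were dropped. Scrublet (scanpy 1.11.5) marked only 17 to 145 barcodes per library by its automatic threshold, so the highest scores were removed at 0.8% per 1000 cells (147 to 385 barcodes).

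A class needed at least 30 marker UMIs per 10000 (100 for neutrophil and erythroid) and at least 3 detected markers of its list, limits set after the scores had been seen. Of the microglia score 51 cells lay near the limit (15 to 60), and of the border macrophage score 69. Cells with markers of 2 classes were called mixed. Clusters came from Leiden (leidenalg 0.10.2, resolution 1, 2000 variable genes without the 7 genes). Sums per library and class were tested with edgeR 4.0.16 (quasi-likelihood test, TMM, filterByExpr, Benjamini-Hochberg adjustment, threshold 0.05) in R 4.3.3, with DESeq2 1.42.0 as an alternative. The tests were run on simulated counts with known changes and 1 fixed spread for all genes. Such counts do not check the spread between real libraries. Poisson, Clopper-Pearson and conditional binomial intervals are exact, at 95%, and cover counting error only. UMI totals per summed class set the depth. Coordinates are from GENCODE vM21 (GRCm38). All 7 genes were named. From the other lists, up to 3 genes with the largest called change per fit were named, and the 10 genes nearest in pattern. Some results that this rule would name are not reported here. The genes, lists and tests were chosen with earlier results of these data known.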

Additional observations from a re-analysis of the deposited data

Results flagged for a closer look

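The genotype contrast of the set ran in opposite directions at the 2 ages. In microglia-like cells all 7 genes were higher in the young EC-K4KO-labelled library than in young WT Cre, with a median log2 CPM ratio of 0.18, and all 7 were lower in the old EC-K4KO-labelled library than in old WT Cre, with a median of -0.15. Every one of these 14 intervals excluded 0 for counting error alone. On the TMM scale the medians were 0.14 and -0.10, and the young interval of Gpr34 then included 0. With thinned cells they were 0.15 and -0.075, with 7 genes higher in the young pair and 6 lower in the old. The 20 other microglia identity genes ran the same way on plain CPM, 20 higher in the young pair and 17 lower in the old. On the TMM scale these counts were 15 and 14. The directions were not counted over all genes. Within clusters the old contrast did not keep one direction. In cluster 16 all 7 genes were higher in the old EC-K4KO-labelled library than in old WT Cre (P2ry12 1331 against 1268 CPM), in cluster 17 P2ry12, Siglech, Gpr34 and Selplg were higher, and in cluster 18 all 7 were lower, all on plain CPM. With TMM factors of all microglia-like cells 7, 5 and 1 genes were higher in clusters 16, 17 and 18, and with factors made within each cluster 6, 5 and 1. Cluster 18, with the lowest levels, held 29.5% of the microglia-like cells of the old EC-K4KO-labelled library against 12.7% in old WT Cre, and the part of this in the contrast was not tested. With 1 library per group, whether the genotype contrast differed between the ages was not tested, since a model with an interaction leaves no residual degree of freedom.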

How the results depend on the processing

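All 7 genes of the set kept a lower level with age in every alternative. With 1 library left out the age fit held no genotype term and 1 age was a single library, so for the set only effect sizes are given. The median log2 change of the set then ran from -0.66 to -0.49. In these fits Tmem119 changed by -0.28 without the young EC-K4KO-labelled library and by -0.38 without the old one. Siglech changed by -0.42 without young WT Cre, and by -0.28 and -0.32 without the young and the old EC-K4KO-labelled library. Over all genes the age calls numbered 3283, and 695 with DESeq2, 1151 with cells thinned to 1000 UMIs, 1166 in low and 1147 in high Ccl3 and Ccl4 cells, and 1223 to 1968 with 1 library left out. The genotype calls numbered 173, and 13 with DESeq2, 49 with thinned cells, 92 with a mitochondrial limit of 5%, 97 in low and 26 in high Ccl3 and Ccl4 cells, 0 with age left out of the model (88 genes at an unadjusted p under 0.05), and 1 to 57 with 1 library left out. None of the 7 genes was called for genotype in any of them. With 1 library left out the genotype fit held no age term and 1 genotype was a single library. Age and genotype were then unbalanced, so differences of age entered the genotype value. The genotype median of the set ran from -0.38 to 0.37 in these fits. For both factors, the counts of calls over all genes with 1 library left out thus come from a different model. They are not to be read against 3283 or 173 as the effect of dropping a library alone. With every library kept and genotype left out of the model, 1481 genes were higher and 936 lower with age.

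Against monocytes, 1616 to 3957 genes were called with 1 library left out (3267 in all), and against neutrophils 813 to 3881 (4045 in all, 2412 with DESeq2), of the set 6 or 7. For high against low Ccl3 and Ccl4, 903 genes were called, 382 with DESeq2 and 300 to 903 with 1 library left out. Under library totals 439 were higher and 738 lower, against 605 and 298. Of the set 5 genes were called under library totals and 0 to 1 with 1 library left out, the 1 without the old EC-K4KO-labelled library. With the median as threshold the Siglech difference reversed to 0.0082. Library ratios moved with the scaling. The median of the set for old over young was -0.70 (WT Cre) and -1.07 (EC-K4KO) on plain CPM, -0.43 and -0.72 with TMM factors, and -0.97 (EC-K4KO) with thinned cells. In the old pair the thinned median was -0.075, and Siglech reversed to 0.033. With Leiden classes the microglial levels were 1600 CPM for P2ry12, 757 for Tmem119, 2655 for Cx3cr1, 1046 for Siglech, 1127 for Gpr34 and 1413 for Selplg. The cause of these shifts was not tested. No paired analysis was possible because, for age and genotype, each group holds 1 library. The comparisons between classes and between high and low Ccl3 and Ccl4 already hold the library as a block.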
